A study of Drosophila melanogaster with 24 samples.

Results

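The nicotinic acetylcholine receptor (nAChR) subunits of the fly head are described here, each on its own, at 2 ages and 6 times of day. The members were all genes whose name in the deposited tables starts with nAChR, which gave 10 of 17637 genes: 7 alpha subunits and 3 beta subunits. The choice went by name alone, but the members, and the lists of other genes below, were chosen with earlier results of these data known. All 10 passed the filter on low values, a mean over 1 FPKM across the libraries. FPKM counts sequenced fragments relative to the length of the transcript and the yield of the library, so that levels of different genes can be set side by side per length.

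The libraries came from heads of *w[1118]* females, mutant for *white* at both ages and used as the control genotype of the study. Young flies were 5 days and old flies 55 days of age, kept on the same diet in cycles of 12 h light and 12 h dark. Pooled heads were taken at ZT (Zeitgeber time, counted in hours from lights on) 0, 4, 8, 12, 16 and 20, with 2 biological replicates per age and time, which made 12 libraries per age and 24 in all. Poly(A)-selected RNA was sequenced, and parallel young and old samples shared a lane. The comparison of ages asks how expression changes late in life, and the time course asks whether it cycles over the day.

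The tables of the 2 ages differed in typical level, with a mean log2 scale factor 0.22 higher in old flies. Every library was therefore brought to the scale of the mean library by a median ratio. Whether that difference was technical was not tested. Levels below are scaled FPKM unless the deposited values are named. After scaling, the median difference of all 9560 genes tested was 0.02 on the log2 scale, against 0.22 on the deposited values. A median ratio brings this median near 0 by design, so the 0.02 is no check of the scaling. The read total per library is unknown. The worth of 1 fragment, read from the steps between the lowest values, differed at most 1.516-fold between libraries. One library stood apart for the subunits: the first young replicate at ZT 12 held the highest young value of 7 subunits and the lowest young value of *nAChRbeta3*. Without it the same number of subunits, 9, was lower in old flies, and their log2 differences ranged from -1.19 to -0.40.

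Nicotinic receptors are ion channels that open when acetylcholine binds, and acetylcholine is the main excitatory transmitter of the insect central nervous system. Each receptor is a ring of subunits around a pore that lets cations pass. Alpha subunits carry a pair of neighbouring cysteines in the loop that binds the transmitter, beta subunits lack it, and many combinations of subunits can assemble. The channels are also the targets of neonicotinoid and spinosyn insecticides.

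The 10 genes lie on chromosomes X, 2L, 3L and 3R (coordinates of BDGP6, from a later annotation release than the one used for the FPKM values). *nAChRalpha1* (FBgn0000036, 3R:24393896-24457157, minus strand), *nAChRalpha2* (FBgn0000039, 3R:24485428-24491147, plus strand) and *nAChRbeta2* (FBgn0004118, 3R:24509228-24515106, minus strand) are neighbours on 3R. *nAChRbeta1* (FBgn0000038, 3L:4429349-4435993, plus strand) and *nAChRalpha4* (FBgn0266347, 3L:23206669-23287448, plus strand) lie on 3L. *nAChRalpha3* (FBgn0015519, X:8276200-8367169, minus strand) and *nAChRalpha7* (FBgn0086778, X:19327075-19348447, minus strand) lie on X. *nAChRbeta3* (FBgn0031261, 2L:545129-547096, plus strand), *nAChRalpha6* (FBgn0032151, 2L:9793317-9886250, minus strand) and *nAChRalpha5* (FBgn0028875, 2L:14040170-14094401, plus strand) lie on 2L.

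The genes differ widely in build, and 2 features bear on how their reads were counted. The reads were aligned with a maximum intron length of 10000 bp, and 5 subunits have annotated introns above it. *nAChRalpha4* has 10 such introns of 18, with a longest intron of 35160 bp. *nAChRalpha6* has 3 and *nAChRalpha3* 2, while *nAChRalpha1* and *nAChRalpha5* have 1 each. Whether fragments that join exons across these introns were lost, which would lower the levels of these 5 genes at both ages, was not tested. The second feature is overlap: all 1532 exonic bp of *nAChRbeta3* also lie on exons of *Ets21C* on the opposite strand, and 251 exonic bp of *nAChRalpha3* lie on those of *CG1636*, also opposite. *nAChRalpha4* shares 247 exonic bp with a noncoding RNA gene on the opposite strand that was not analysed here. The library kit keeps strand, but whether strand was used in the counting is not stated in the sources used here.

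In young heads *nAChRbeta1* was far above every other subunit. Its lowest library, at 251 scaled FPKM, was above the highest library of any other subunit. Its median was 298 and its highest value 342. *nAChRbeta1* accounted for 45.5% ± 1.55 (SD, n = 12) of the summed FPKM of the 10 subunits. Next came *nAChRalpha4* at 83.4 ± 6.80 (SD, n = 12), known as the sleep gene *redeye*, and *nAChRalpha7* at 80.3 ± 8.80, which is needed for the giant fibre escape response. These neighbours were not separated: *nAChRalpha4* was the higher of the pair in 9 of 12 young libraries and their ranges overlapped.

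The middle of the order held *nAChRalpha6* at 51.4 ± 5.15 (SD, n = 12), the target of spinosyns, and *nAChRalpha5* at 47.7 ± 6.98. Their ranges also overlapped, with *nAChRalpha6* higher in 9 of 12 libraries. Both are, with *nAChRalpha7*, the fly subunits most like the vertebrate alpha7 type. *nAChRbeta2* followed at 32.3 ± 2.33 and *nAChRalpha1* at 26.2 ± 4.25, which overlapped as well. Mutants of these last genes resist neonicotinoids.

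The lowest levels were those of *nAChRbeta3* at 14.04 ± 2.84 (SD, n = 12), a divergent subunit, *nAChRalpha3* at 13.8 ± 1.99 and *nAChRalpha2* at 6.07 ± 0.416. *nAChRbeta3* and *nAChRalpha3* could not be ranked, since *nAChRbeta3* was above *nAChRalpha3* in only 5 of 12 young libraries. *nAChRalpha2* was below all others in every young library.

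Old heads held less RNA of 9 of the 10 subunits, relative to all genes, and more of *nAChRbeta3*. *nAChRbeta1* fell the most, to 43.0% of its young mean, followed by *nAChRbeta2* at 48.1% and *nAChRalpha4* at 53.5%. The other alpha subunits kept between 61.7% and 72.8% of their young means. Falls were smaller on the deposited FPKM, where the mean of *nAChRbeta1* went from 276 to 139 and that of *nAChRalpha5* from 44.1 to 37.5. By limma's moderated test on log2(scaled FPKM + 1), with adjustment over all 9560 genes and a threshold of 0.01, 9 subunits were called lower and 1 higher in old flies. Among all genes tested, 21.1% were called lower and 20.2% higher, or 2014 and 1932 genes. On the deposited FPKM, 1031 genes were called lower and 4163 higher, and 8 subunits lower and 1 higher. The median log2 difference of the 10 subunits was -0.57. In bulk RNA from heads, fewer cells of a type and less RNA per cell cannot be told apart.

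*nAChRbeta1*, a subunit found in many receptor types, ranged from 251 to 342 scaled FPKM in young flies with a median of 298, and from 112 to 165 in old flies with a median of 126. The ages did not overlap, and the highest old value came from the second replicate at ZT 0. The log2 difference, old minus young, was -1.21 ± 0.061 (SE, n = 12 per age; adjusted *P* value 2.68e-14 in limma). Only 71 of the 9560 genes had a lower value. On the deposited FPKM, without scaling, *nAChRbeta1* had a mean of 276 in young and 139 in old flies.

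*nAChRbeta2* ranged from 28.4 to 35.7 scaled FPKM in young flies with a median of 32.3, and from 13.6 to 17.6 in old flies with a median of 15.4. Every old library was thus below every young one. Its log2 difference was -1.01 ± 0.045 (SE; adjusted *P* value 3.06e-15 in limma), the smallest standard error of the 10 subunits.

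*nAChRalpha4* ranged from 76.8 to 100.1 scaled FPKM in young flies with a median of 81.7, and from 35.1 to 51.0 in old flies with a median of 43.6. Its log2 difference was -0.89 ± 0.058 (SE; adjusted *P* value 2.94e-12 in limma). *nAChRalpha7* ranged from 67.2 to 96.0 with a median of 80.8 in young flies, and from 41.7 to 56.1 with a median of 49.5 in old flies. Both genes showed the same pattern as the beta subunits above, with no overlap of the ages, and the log2 difference of *nAChRalpha7* was -0.68 ± 0.059 (SE; adjusted *P* value 4.69e-10 in limma).

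*nAChRalpha6* was the last of the 5 subunits whose ages did not overlap. It ranged from 44.5 to 61.3 scaled FPKM in young flies with a median of 50.6, and from 29.9 to 41.4 in old flies with a median of 34.1. The log2 difference was -0.57 ± 0.056 (SE; adjusted *P* value 4.46e-09 in limma). Of all genes tested, 7.14% had every old library below every young one and 4.57% the opposite. No subunit had every old library above every young one.

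The ages of the other 4 alpha subunits overlapped, with 10 of 12 old libraries below the lowest young one for *nAChRalpha5* and 11 of 12 for the rest. *nAChRalpha1* ranged from 20.7 to 37.3 scaled FPKM in young and from 12.8 to 22.3 in old flies, a log2 difference of -0.57 ± 0.080 (SE; adjusted *P* value 1.30e-06 in limma). *nAChRalpha3* ranged from 10.95 to 19.005 in young and from 7.51 to 12.4 in old flies, a log2 difference of -0.52 ± 0.070 (adjusted *P* value 7.73e-07). The second old replicate at ZT 16 was the highest old library of both genes and the one that reached into their young ranges. *CG1636*, which overlaps *nAChRalpha3* by 251 exonic bp, had gene level means of 42.3 ± 6.95 and 33.1 ± 4.402 scaled FPKM (SD, n = 12) in young and old flies, a change in the same direction. Its part in the result for *nAChRalpha3* was not tested.

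*nAChRalpha5* ranged from 37.3 to 66.6 scaled FPKM in young and from 25.7 to 47.8 in old flies, a log2 difference of -0.45 ± 0.079 (SE; adjusted *P* value 3.45e-05 in limma). *nAChRalpha2* ranged from 5.52 to 7.01 in young and from 3.34 to 5.84 in old flies, a log2 difference of -0.40 ± 0.066 (adjusted *P* value 1.29e-05). These 2 calls were the least secure. With the second replicate alone, 6 libraries per age, *nAChRalpha5* was at -0.27 (adjusted *P* value 0.0612 in limma) and *nAChRalpha2* at -0.29 (adjusted *P* value 0.0256). On the deposited FPKM *nAChRalpha2* was at -0.21 (adjusted *P* value 0.0180).

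**Figure D1:**
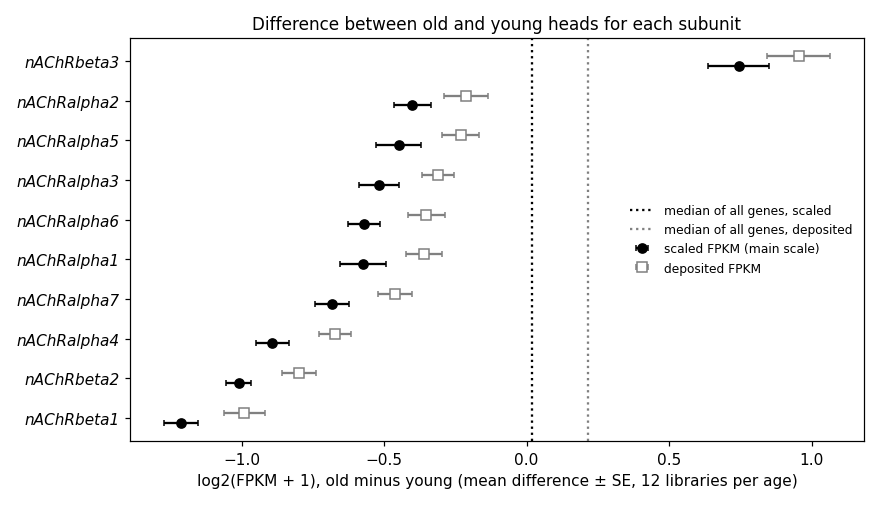
Old minus young difference of log2(FPKM + 1) for each subunit, mean difference with its SE over 12 libraries per age, on scaled values (filled circles) and deposited values (open squares), with the median of all genes tested on each scale as a dotted line. On the scaled values 9 subunits lie between -1.21 and -0.40 and *nAChRbeta3* at 0.74, and no subunit changes sign on the deposited values.

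*nAChRbeta3* went the other way. It ranged from 8.81 to 18.1 scaled FPKM in young flies with a median of 13.6, and from 15.4 to 30.2 in old flies with a median of 24.9. The groups overlapped through 1 old library, the first replicate at ZT 0, and the other 11 old libraries were above every young one. The log2 difference was 0.74 ± 0.107 (SE, n = 12 per age; adjusted *P* value 2.01e-06 in limma), above that of all but 359 genes. *nAChRbeta3* was called higher in old flies on the deposited FPKM too, at 0.95.

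Since *nAChRbeta3* lies wholly on exons of *Ets21C*, a transcription factor of the ETS family, the values of that gene stand beside it. *Ets21C* was at 0.351 ± 0.111 scaled FPKM (SD, n = 12) in young flies, from 0.157 to 0.508, and at 0.800 ± 0.144 in old flies, from 0.552 to 1.06. Its ages did not overlap, and it moved in the same direction as *nAChRbeta3*. Its mean over the libraries was below the filter on low values, so it was not tested, and its part in the result for *nAChRbeta3* was not tested. It was chosen for this comparison after its overlap was seen in the annotation.

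At single times of day the log2 difference of the 9 falling subunits was below 0 at all 6 times, 54 of 60 pairs of subunit and time. With 2 libraries per age and time, the spread pooled over the 12 groups of age and time, and a threshold of 0.05 adjusted over all genes at each time (limma), 45 of the 60 pairs were called lower and 5 higher. *nAChRbeta1*, *nAChRbeta2*, *nAChRalpha4*, *nAChRalpha6* and *nAChRalpha7* were called lower at each of the 6 times. *nAChRalpha1* was called at 5 times, *nAChRalpha2* at 4, and *nAChRalpha3* and *nAChRalpha5* at 3 each. On the deposited FPKM 34 of the 60 pairs were called lower. The share of all genes called at single times was not counted on that scale, so the 34 cannot be set against it.

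The count of subunits called lower was 7 of 10 at ZT 0, where 15.2% of all genes were called lower and 11.7% higher. At ZT 4 it was 8, against 14.8% of genes lower and 11.5% higher. At ZT 8 it was also 8, against 12.8% lower and 11.6% higher. ZT 12 had the highest count, 9 subunits, against 16.5% of genes lower and 13.3% higher. At ZT 16 it was 7, against 12.1% lower and 10.8% higher, and at ZT 20 it was 6, against 12.4% lower and 11.6% higher.

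*nAChRbeta3* was called higher at every time but ZT 0. At ZT 0 its values were 14.7 and 17.8 scaled FPKM in young flies, against 15.4 and 20.7 in old ones, and the ages overlapped there. The log2 difference at that time was 0.14 ± 0.259 (SE; adjusted *P* value 0.740 in limma). At ZT 4 the values were 13.2 and 15.1 at the young age and 25.0 and 30.2 at the old age, with a log2 difference of 0.91. From ZT 8 to ZT 20 the log2 difference was between 0.77 and 0.95. The change of its daily pattern with age was not called, so ZT 0 is not shown to differ from the other times.

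*nAChRbeta1* was called at each time with log2 differences between -1.34 at ZT 12 and -1.11 at ZT 16. At ZT 0 its young values were 339 and 326 scaled FPKM and its old values 132 and 165. At ZT 20 they were 251 and 258 at the young age and 114 and 112 at the old age. The old pair was below the young pair at every time.

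**Figure D2:**
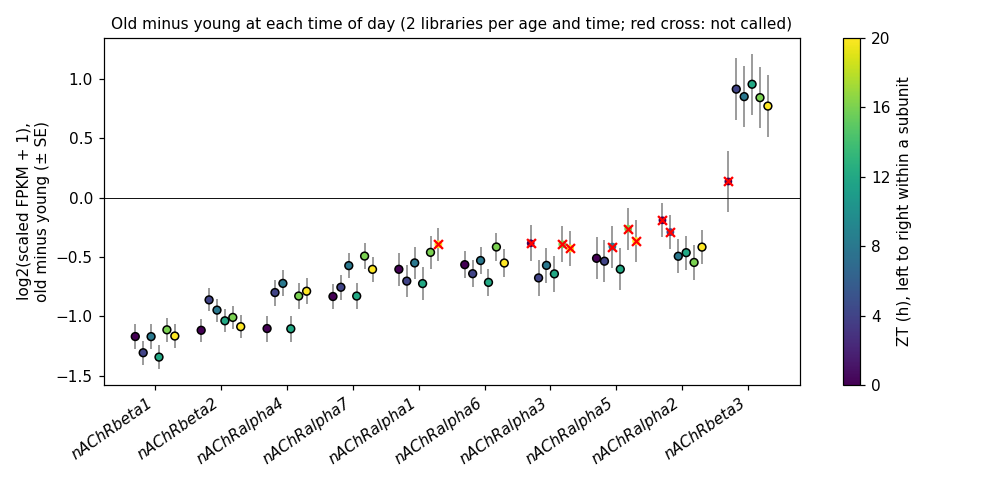
Old minus young difference of log2(scaled FPKM + 1) with its SE for each subunit at ZT 0, 4, 8, 12, 16 and 20, coloured by time and placed left to right within a subunit, 2 libraries per age and time; a red cross marks a difference that was not called. *nAChRbeta1* stays between -1.34 and -1.11 over the day, while *nAChRbeta3* is at 0.14 at ZT 0 and between 0.77 and 0.95 at the other times.

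The subunits thus did not change in proportion. Young flies had a summed level of 652 ± 54.3 scaled FPKM (SD, n = 12), from 578 to 769, and old flies one of 361 ± 24.1, from 325 to 399, with no overlap. Within that sum, where the scale of a library cancels, *nAChRbeta1* went from 45.5% ± 1.55 to 35.3% ± 2.76 (SD, n = 12), and its highest old share, 41.2%, was below its lowest young share, 43.5%. *nAChRbeta3* went from 2.17% ± 0.503 to 6.70% ± 1.26 and *nAChRalpha6* from 7.87% ± 0.198 to 9.48% ± 0.483, both without overlap of the ages. The level of *nAChRalpha6* itself fell, to 66.7% of its young mean. Its share rose beside the larger fall of *nAChRbeta1*, to 43.0% of the young mean. The shares of the other 7 subunits overlapped between ages. The ratio of *nAChRbeta1* to the summed alpha subunits was 0.964 ± 0.0674 in young flies against 0.661 ± 0.0792 late in life, with a lowest young value of 0.885 above the highest old value of 0.835. These shares follow from the levels above and were not tested.

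The order of levels in old flies shifted accordingly. *nAChRbeta1* remained first at 128 ± 13.7 scaled FPKM (SD, n = 12), again above all others in every library. *nAChRalpha7*, at 49.6 ± 4.33, was above *nAChRalpha4*, at 44.6 ± 5.07, in 8 of 12 old libraries, and their ranges overlapped. *nAChRalpha5*, at 34.7 ± 5.23, was above *nAChRalpha6*, at 34.3 ± 3.23, in only 7 of 12 old libraries. *nAChRbeta3* stood at 24.1 ± 4.23, above *nAChRalpha1* at 17.2 ± 2.41 in 11 of 12 old libraries, whereas it had been below *nAChRalpha1* in all 12 young ones. *nAChRbeta2* followed at 15.5 ± 1.23, then *nAChRalpha3* at 9.33 ± 1.22 and *nAChRalpha2* at 4.398 ± 0.800.

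**Figure D3:**
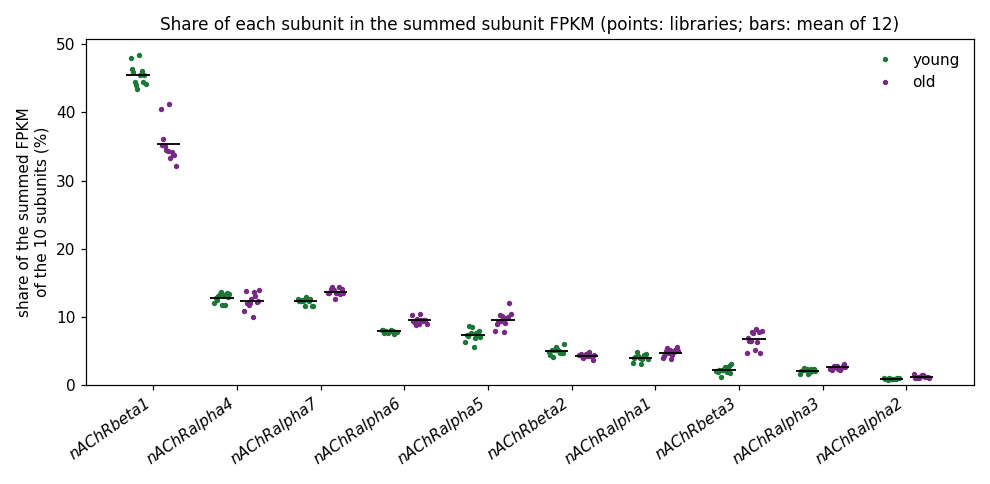
Share of each subunit in the summed FPKM of the 10 subunits, in percent, with 1 point per library and a bar at the mean of 12 libraries per age. The share of *nAChRbeta1* is 45.5% in young and 35.3% in old flies and that of *nAChRbeta3* 2.17% and 6.70%, in both cases without overlap of the ages.

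In young flies, daily rhythms were called for a share of subunits near that of all genes. With 10 subunits, a count of 0 or 1 does not set them apart. A curve with a period of 24 h was fitted at each age and tested with limma's moderated F statistic at a threshold of 0.05, which called 1 of 10 subunits in young flies, where 9.58% of all genes were called, and 0 in old flies, where 11.1% were called. At an unadjusted *P* value of 0.05 or less, 2 of 10 subunits passed in young and 1 in old flies, with 2669 and 2883 of all 9560 genes. On the deposited FPKM the count was 1 at each age, and the gene was *nAChRbeta2* and not *nAChRalpha1*. The share of all genes called rhythmic was not counted on that scale, and the shares above do not apply to it. The scale factors themselves followed time of day. At both ages their maximum was at ZT 0 and their minimum at ZT 12, a log2 range of 0.19 in young flies against 0.20 in old ones.

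The rhythm called in young flies was that of *nAChRalpha1*. Its values were 22.6 and 20.7 scaled FPKM at ZT 0, 26.7 and 25.8 at ZT 4, and 26.3 and 28.6 at ZT 8. They were 37.3 and 26.9 at ZT 12, 26.3 and 27.1 at ZT 16, and 23.3 and 22.2 at ZT 20. The pairs at ZT 0 and ZT 20 were thus below all others, and the fit peaked at ZT 10.9 with an amplitude of 0.23 on the log2 scale (adjusted *P* value 0.0436 in limma).

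In old flies *nAChRalpha1* was at 12.8 and 15.04 scaled FPKM at ZT 0 and 15.4 and 16.0 at ZT 4. It was at 17.8 and 19.1 at ZT 8, 18.9 and 18.7 at ZT 12, 16.4 and 22.3 at ZT 16, and 16.9 and 17.3 at ZT 20. Again the pair at ZT 0 was lowest, and the fitted peak was ZT 12.9 with an amplitude of 0.20, which was not called (adjusted *P* value 0.0645 in limma). With the replicate number as a block it was called (adjusted *P* value 0.0491), and the count in old flies was then 1 of 10. The call in young flies was not robust. It was lost on leaving out any of 9 of the 12 young libraries in turn, both of ZT 0, ZT 4, ZT 16 and ZT 20 and the second of ZT 8, with adjusted *P* values up to 0.108 (limma), and it was lost with either replicate alone.

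Amplitudes of the other 9 subunits were between 0.01 and 0.18 on the log2 scale in young flies and between 0.05 and 0.17 in old flies. *nAChRalpha3* was closest to a call, with an amplitude of 0.18 and a peak at ZT 11.3 in young flies (adjusted *P* value 0.112 in limma). It was called only without the second young replicate at ZT 12 (adjusted *P* value 0.0374). The change of rhythm between ages was called for 0 of 10 subunits by limma's F test of whether the fitted curve differed with age, where 0.209% of all genes were called. No subunit reached an unadjusted *P* value of 0.05, which 609 of the 9560 genes did, and the lowest adjusted *P* value of a subunit was 0.957 (limma).

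**Figure D4:**
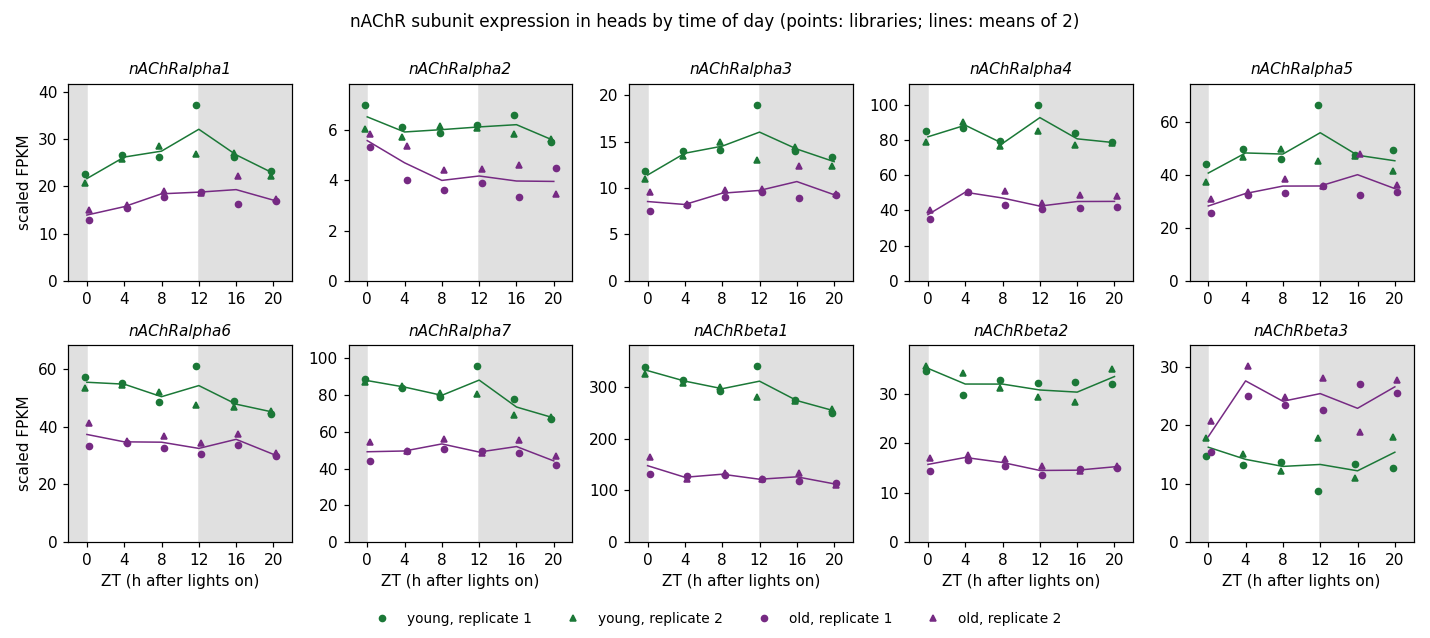
Scaled FPKM of the 10 subunits by ZT in young (green) and old (purple) heads, with 1 point per library, circles and triangles for the first and second replicate, lines through the means of 2 and the dark phase shaded. The old points of *nAChRbeta1*, *nAChRbeta2*, *nAChRalpha4*, *nAChRalpha6* and *nAChRalpha7* lie below all young points, and the first young replicate at ZT 12 is high for 7 subunits.

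Among themselves the subunits fell into patterns within an age. After the mean of each age was taken off, *nAChRalpha1*, *nAChRalpha3* and *nAChRalpha5* had Pearson correlations of 0.92 to 0.93 with each other over the 24 libraries. *nAChRbeta1* had one of 0.91 with *nAChRalpha6* and 0.80 with *nAChRalpha7*, and these alpha subunits had 0.86 with each other. The neighbours *nAChRalpha1* and *nAChRbeta2* on 3R had the lowest value of the 36 pairs without *nAChRbeta3*, -0.38, and the median of those pairs was 0.31. The 9 pairs with *nAChRbeta3* ranged from -0.49 to 0.43. The points share library, scale factor and time of day, and these values are a description.

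Genes that were most like a subunit over all 24 libraries were found by the same correlation, with the difference between ages left in. That choice favours genes that move with age as the subunit does, so their differences between ages are no separate result. With the mean of each age taken off, r was lower, from 0.63 (*nAChRbeta2* with *unc79*) to 0.95 (*nAChRalpha5* with *lmgB*). For *nAChRbeta1* they were *Con*, a cell adhesion molecule (r = 0.991), *kcc*, a potassium chloride cotransporter (0.991), and *nrv3*, a subunit of the sodium pump (0.989). For *nAChRbeta2* they were *GABA-B-R2*, a metabotropic GABA receptor (0.987), *unc79* (0.987) and the channel gene *Ih* (0.981). *Con*, *kcc* and *nrv3* had log2 differences between ages of -0.90, -1.03 and -0.87.

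*nAChRalpha4* was closest to *Ac3*, an adenylyl cyclase (r = 0.988), *CG12531* (0.986) and *Syt1*, the calcium sensor of transmitter release (0.982). *nAChRalpha7* was closest to *RSG7* (0.989), *dpr11* (0.989) and *CG42784* (0.987). *nAChRalpha6* was closest to *fne*, an RNA binding protein of the ELAV family (0.982), *Tomosyn* (0.980) and *para*, the voltage gated sodium channel (0.980).

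*nAChRalpha1* was closest to *CG18208* (r = 0.982), *mura* (0.981) and *pum*, a translational repressor (0.975). *nAChRalpha5* was closest to *lmgB* (0.980), *orb2* (0.978) and *mura* (0.969). *nAChRalpha3* was closest to *VAChT*, the vesicular transporter of acetylcholine (0.981), *CG2258* (0.979) and *NetB*, a netrin (0.979). *nAChRalpha2* had the loosest likeness of the alpha subunits, to *nrm* (0.904), *Teh2* (0.902) and *CR44023* (0.884).

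*nAChRbeta3* was most like *CG5597* (r = 0.944), *Fer1HCH*, the heavy chain of ferritin (0.941), and *Crz*, the neuropeptide corazonin (0.935). Their log2 differences between ages were 0.37, 0.64 and 0.85, a direction that the choice by correlation favours.

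Genes that make, move and remove acetylcholine fell with the receptors. All 4 of the list were called lower in old flies and 0 higher, against 21.1% and 20.2% of all genes, with a median log2 difference of -0.72. *ChAT*, which makes acetylcholine, went from 39.3 ± 2.88 to 24.8 ± 2.83 scaled FPKM (SD, n = 12), a log2 difference of -0.65 (adjusted *P* value 2.13e-10 in limma). *VAChT* went from 68.3 ± 12.8 to 38.2 ± 7.34, a log2 difference of -0.83 (7.25e-08). These genes share 606 exonic bp on the same strand, so reads there could have gone to either.

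*Ace*, the acetylcholinesterase that ends the signal, went from 105.6 ± 9.99 to 60.7 ± 5.11 scaled FPKM (SD, n = 12), a log2 difference of -0.79 (adjusted *P* value 3.25e-12 in limma). *CG7708*, the choline transporter gene, went from 44.9 ± 7.38 to 29.1 ± 6.66, a log2 difference of -0.62 (4.71e-05). In the annotation used here it shares 3299 exonic bp with *CG46318* on the same strand. Of the muscarinic receptors, which act through G proteins, 2 of 3 passed the filter and both were called lower, against 21.1% of all genes. *mAChR-A* was at -0.29 (adjusted *P* value 4.90e-07 in limma) and *mAChR-B* at -0.56 (1.33e-09). *CG12796* was at 0.212 and 0.196 scaled FPKM in young and old flies and was not tested.

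The accessory proteins of the list were all 3 called lower, against 21.1% of all genes, with a median log2 difference of -0.75. *RIC-3*, a chaperone of receptor assembly known first from *Caenorhabditis elegans*, went from 49.6 ± 4.68 to 29.2 ± 3.76 scaled FPKM (SD, n = 12; log2 difference -0.75, adjusted *P* value 1.83e-10 in limma). *qvr*, also called *sleepless*, whose protein binds potassium channels and nicotinic receptors, went from 331 ± 35.8 to 191 ± 20.5 (-0.79, 9.69e-11). *Adar*, the enzyme that edits RNAs of several subunits, went from 109.7 ± 14.96 to 70.1 ± 9.20 (-0.64, 7.50e-08), and shares 498 exonic bp with *prage* on the same strand.

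Other channels of the same Cys-loop family, mostly gated by GABA, glutamate or histamine, showed a like split. Of 11 tested, 8 were called lower, 1 higher and 2 were not called, with a median log2 difference of -0.64. Among all genes, 21.1% were called lower and 20.2% higher. *GluClalpha*, a glutamate gated chloride channel, was at -0.94 (adjusted *P* value 1.53e-12 in limma). *Rdl*, the main GABA receptor subunit, went from 140.5 ± 18.6 to 87.7 ± 9.67 scaled FPKM (SD, n = 12), a log2 difference of -0.67 (3.87e-08).

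*CG8916* was at -0.83, *pHCl* at -0.73, *Grd* at -0.67 and *Lcch3* at -0.64. *Grd* shares 1118 exonic bp with *CG5577* and *Lcch3* 456 with *Ranbp16*, each on the opposite strand. The histamine gated channels had the smallest called differences, *ort* at -0.34 (adjusted *P* value 0.00991 in limma) and *HisCl1* at -0.29 (0.00241). *NtR* was the one called higher: it went from 9.81 ± 0.966 to 18.4 ± 1.71 scaled FPKM (SD, n = 12), a log2 difference of 0.84 (1.47e-12). It was thus the only gene called higher among these other channels, as *nAChRbeta3* was among the nicotinic subunits.

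Genes that mark neurons moved in the same direction as the 9 falling subunits. All 12 neuronal markers were called lower in old flies, against 21.1% of all genes. Their median log2 difference was -0.50, with a range from -1.09 for *Syt1* to -0.30 for *Appl*. Their summed level was 2289 to 3070 scaled FPKM in young and 1419 to 1933 in old flies, without overlap. *elav*, the usual mark of neurons, was at -0.52 and *nSyb* at -0.54. Set against all 12 markers, only *nAChRbeta1*, at -1.21, had a log2 difference below their whole range. The other falling subunits lay within that range. The order of subunits and markers was not tested. The part of neurons in the result for the subunits was not tested.

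Markers of other cells of the head were called lower in part, where 21.1% of all genes were called lower and 20.2% higher. Of 8 glial markers 4 were lower, 2 higher and 2 not called, with a median log2 difference of -0.32, and their summed level, 1926 to 2625 scaled FPKM in young and 1356 to 2287 in old flies, overlapped between ages. Of 8 photoreceptor markers 5 were lower and 0 higher, with a median of -0.31 and sums of 17484 to 20916 and 12616 to 18568. Of 8 fat body markers 3, the yolk proteins, were lower, 0 higher and 5 not called, with a median of -0.44. The sums were 14087 to 31373 in young and 7903 to 13246 in old flies, without overlap. The yolk protein gene *Yp1* alone had means of 12910 and 5680 scaled FPKM, so these sums say little about the markers that were not called. Of 6 muscle markers that passed the filter 3 were lower and 0 higher, with a median of -0.30 and sums of 1808 to 2566 and 1360 to 1918. None of the neuronal, glial, photoreceptor or fat body markers was at 0 in any library, while the flight muscle gene *TpnC4* was listed at 0 in 4 young and 2 old libraries, and the part of these cell types in the result was not tested.

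**Figure D5:**
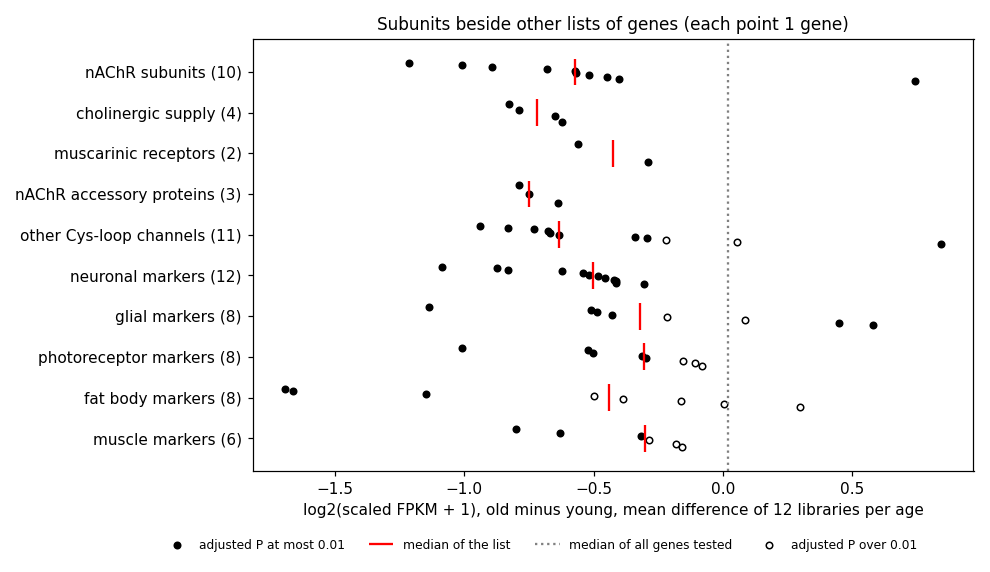
Old minus young difference of log2(scaled FPKM + 1), mean of 12 libraries per age, for every gene tested in 10 lists, 1 point per gene, filled where the adjusted *P* value was at most 0.01, with the median of each list in red and the median of all genes as a dotted line. The subunits have a median of -0.57 and the neuronal markers one of -0.50, against 0.02 for all genes, and *nAChRbeta3* at 0.74 and *NtR* at 0.84 lie apart to the right.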

How the data were processed

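RNA-seq values of 24 libraries of fly heads, 12 per age, were used. The authors trimmed reads with skewer, aligned them with TopHat2 to BDGP6 (dm6), computed FPKM per gene with Cuffdiff and deposited 1 table per age of 17637 genes. FPKM keeps no read totals, so the precision rests on the spread between libraries. The tables also hold the authors' ARSER results (*P* value, adjusted value, phase, period, amplitude), which were not used. Columns are named by hour: their group comes from the hour and the table, and the first and second daily cycle were taken as replicates 1 and 2.

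Each library was divided by the median, over 9159 genes, of its ratio to the mean of all libraries. Pre-microRNA hairpins (235) and genes with a mean of at most 1 FPKM were left out, which kept 9560 genes. Tests were run with limma 3.58.1 in R 4.3.3 (eBayes with trend) on log2(scaled FPKM + 1), with Benjamini-Hochberg adjustment. Differences of low genes are understated on that scale. The age test used all libraries without time of day, as in the study, at 0.01, and the tests of rhythm (24 h cosine and sine), of its change and of single times were called at 0.05. Levels and likeness were computed in Python 3.11.15 with numpy 2.4.6 and pandas 2.3.3 and drawn with matplotlib 3.10.9.

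Genes named are the 10 subunits, the genes of 4 related lists that passed the age test, and the 3 genes most correlated with each subunit. Others, such as overlapping genes, genes not tested, and markers, were named after their values were seen. The members and lists were chosen with earlier results of these data known. The lists hold some genes under alternative symbols, which count once. The symbols *mAcR-60C* and *NACHO* were not matched to a gene of the tables, and *mAcR-60C* need not be a further receptor.

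The fits were run on simulated data for 9560 genes with 200 changed by 1 on the log2 scale. The age test recovered 193 and called 1 other, the rhythm tests recovered 190 in young and 193 in old flies and called 8 and 11 others, and the test of a change of rhythm recovered 187 and called 8 others. Of single times only ZT 0 was simulated, where 155 were recovered and 6 others called. Simulated rhythms had an amplitude of 1 around flat means with independent noise. Fitted amplitudes of the subunits were at most 0.23, and recovery of rhythms of that size was not tested. Alternatives were no scaling, upper quartile scaling, a pseudocount of 0.1, other filters, a replicate block, no trend, time of day as a factor, an adjusted *P* value of 0.05 and leaving out libraries. Deposited FPKM together with time of day as a factor was added after seeing the data.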

Additional observations from a re-analysis of the deposited data

How the results depend on the processing

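No subunit's difference between ages changed direction under any alternative run. Of 340 such values, 337 kept their call, and the 3 lost ones, of *nAChRalpha2* and *nAChRalpha5*, are given above. On the deposited FPKM without scaling, 8 subunits were called lower, and the counts over all genes were 1031 lower and 4163 higher against 2014 and 1932, while upper quartile scaling gave 1846 and 2219. With time of day as a factor as well, a setting chosen after seeing the data, they were 1244 and 4813. The rhythm count was 1 in old flies on the deposited FPKM. In young flies it was 0 with no filter on low values and 0 with time of day as a 6-level factor. The share of all genes called rhythmic was not counted for these alternatives. Leaving out a library or a replicate gave 7 to 9 subunits lower, 1112 to 2047 genes lower, 880 to 1953 genes higher, 0 to 2 subunits rhythmic in young and 0 to 1 in old flies, and 0 with a change of rhythm. The lowest counts over all genes came with 1 replicate alone, which has 12 of the 24 libraries. *nAChRalpha1* was rhythmic in old flies without the first old replicate at ZT 16 (adjusted *P* value 0.0228 in limma). The replicate numbers were not taken to pair the samples, since deviations from the group means over all genes correlated between -0.32 and 0.34 over 66 pairs of groups, with a median of -0.02 and 12 pairs over 0.1. Between young and old flies of the same time of day these correlations were between -0.06 and 0.28. The lanes shared by parallel young and old samples were not part of any fit. For the 9 falling subunits, however, the median deviation was higher in the second replicate at 6 of 6 times in old and 2 of 6 in young flies. With the replicate number as a block, the 9 calls lower in old flies held and 1 subunit, *nAChRalpha1*, was called rhythmic in old flies (adjusted *P* value 0.0491 in limma). In the age test that block is 1 shift shared by both ages, so it cannot take up a shift of old flies alone. The age test treats the libraries of an age as independent. Single times of day rest on 2 libraries per age, and read totals are unknown.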
